A study of Mus musculus with 10 samples.

Results

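The beta-catenin destruction complex was examined through 10 of its genes in RNA from 10 mouse gastric tumours. They were Apc, Apc2, Axin1 and Amer1 (scaffolds), Csnk1a1, Gsk3a and Gsk3b (kinases), Btrc (the receptor of a ubiquitin ligase), Ctnnb1 (beta-catenin, the substrate) and Tcf7l2 (a DNA-binding partner of beta-catenin). They were found by gene name, a rule that uses no measured value, but the 10 genes were chosen with earlier results of these data known. All 10 were present among the 56748 genes of the expression table, with 1 row each. Bulk RNA sequencing had been done on 5 tumours labelled inflamed and 5 labelled desert, all from stomach, with 1 library per tumour. The inflamed tumours carried the genotype Tff1-CreERT2;Apcfl/fl;Trp53fl/fl, that is, floxed Apc and Trp53 with a tamoxifen-inducible Cre recombinase driven by Tff1, a gene of gastric surface mucous cells, and their treatment is given as genetic mutation. The other 5 were grafted into the stomach as orthotopic allografts, and their genotype is given as wild type. The sources used here do not say whether that term refers to the recipient or to the graft, nor do they give lesions of the graft in Apc or Ctnnb1, or the age and sex of the animals. Tumour type, tumour model and genotype coincided completely, so they cannot be told apart in any comparison below. Nothing in the labels states that the 5 tumours of a type came from separate animals, so the p-values measure only the spread between these samples.

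In the cytoplasm, Axin1 and Apc hold beta-catenin close to its kinases. Casein kinase 1 alpha (Csnk1a1) primes beta-catenin, glycogen synthase kinase 3 (Gsk3a, Gsk3b) continues the phosphorylation, and beta-TrCP (Btrc) recognises the phosphorylated stretch so that the protein is ubiquitylated and degraded. A Wnt signal, or loss of Apc, leaves beta-catenin stable, and it then enters the nucleus and switches on genes together with TCF/LEF factors such as Tcf7l2. In the intestine and the stomach this pathway maintains stem cells, and loss of Apc is a classical initiating lesion of intestinal tumours. RNA levels, the only quantity measured here, report neither the amount of beta-catenin protein nor its phosphorylation.

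The stretch of Ctnnb1 on which 4 of these gene products act is shown because it links the kinases to the ligase. It covers codons 31 to 46 of a Ctnnb1 transcript (GENCODE M21, GRCm38 chr9:120950599-120950646, plus strand, exon 3, coding), and the capitals mark the codons of serine 33, serine 37, threonine 41 and serine 45, the last being the residue primed by casein kinase 1 and the others those of GSK3.
Ctnnb1 codons 31 to 46: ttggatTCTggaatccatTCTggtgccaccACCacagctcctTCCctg
It is the reference sequence. The expression table sums reads over the whole gene, so mutations in this stretch were not analysed here.

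RefSeq promoter windows (250 bases upstream of a start, GRCm38.p6) were found for 5 of the 10 genes: 4 for Apc2, 2 each for Ctnnb1 and Tcf7l2 and 1 each for Gsk3a and Gsk3b. The windows of Gsk3a and Gsk3b are printed because these paralogs moved in the same direction. Both hold the core letters of the TCF/LEF motif, CTTTGA, read on the opposite strand as TCAAAG (capitals).
Gsk3a, GRCm38 chr7:25237852-25238101, minus strand: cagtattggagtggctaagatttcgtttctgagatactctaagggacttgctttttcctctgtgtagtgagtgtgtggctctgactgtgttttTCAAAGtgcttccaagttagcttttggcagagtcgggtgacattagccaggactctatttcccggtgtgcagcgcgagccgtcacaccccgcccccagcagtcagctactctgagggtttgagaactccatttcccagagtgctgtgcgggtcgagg
Gsk3b, GRCm38 chr16:38088751-38089000, plus strand: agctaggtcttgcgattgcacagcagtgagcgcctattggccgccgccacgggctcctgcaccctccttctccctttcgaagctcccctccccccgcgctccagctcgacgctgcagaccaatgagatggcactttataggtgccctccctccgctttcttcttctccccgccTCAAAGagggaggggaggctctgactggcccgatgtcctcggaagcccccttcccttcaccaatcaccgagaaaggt
None of the 8 windows of Apc2, Ctnnb1 and Tcf7l2 holds CTTTGA on either strand, so that it was in 2 of 10 windows, against 13.8% of all 32851 windows of this length. The match is a description of these letters only. The longer CTTTGAT, which contains the same core, was in 0 of the 10 windows and in 3.21% of all windows.

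Expression was given as FPKM, reads per gene scaled by gene length and by a total for each library. That total was 0.980 (inflamed tumour 4) to 1.15 (desert tumour 2) times the reads in genes, so it was not the count of these reads. Levels of different genes can be compared only as far as the 1 length given for each gene holds, such as 16908 bases for Btrc and 3828 for Axin1. Each library held between 14148147 and 16951640 reads in genes. The sum of FPKM over all genes was higher in every inflamed library (2.81e+05 to 3.56e+05) than in any desert library (2.37e+05 to 2.70e+05), which makes the scaling matter for small differences. Markers of other cells also differed between the groups. The 8 gastric mucous markers summed to 8077 to 42030 FPKM in the inflamed and 13.5 to 38.9 FPKM in the desert tumours, 8 T cell markers to 12.7 to 38.7 against 1.0 to 2.02, and 6 smooth muscle markers to 71.9 to 798 against 7.49 to 40.6. Of the 6 chondrocyte markers, Comp (0.903 ± 0.169 against 217.2 ± 53.1 FPKM), Col2a1 (0.0117 against 65.9) and Col9a1 (0.122 against 16.2) were near 0 in the inflamed tumours. The summed level of 51.1 to 68.1 against 363 to 566 FPKM was in the inflamed tumours almost all Sox9 (49.9 to 67.1), and Acan was very low in both types (0.0873 against 0.0227). By limma 7 of 8 gastric mucous, 8 of 8 T cell, 5 of 6 smooth muscle, 3 of 5 endothelial, 2 of 6 fibroblast and 1 of 7 macrophage markers were higher in the inflamed tumours and 0 lower, and all 4 tested chondrocyte markers were lower. Of 3 tested neuronal markers 2 were higher and 1 lower, and of 2 tested glial markers 1 was higher. In the desert tumours Muc6 (7.07 to 35.4 FPKM) was the largest part of the gastric mucous sum in every tumour. The other gastric mucous markers averaged only 0.0150 (Tff1) to 1.61 FPKM (Muc5ac) there. The labelled tissue, stomach, was thus marked by these gastric genes strongly in the inflamed tumours and, apart from Muc6, hardly in the desert tumours. The 8 pan-epithelial markers were expressed in all libraries (3489 to 6573 FPKM in the inflamed and 1587 to 2358 FPKM in the desert group). The part of cell composition in the results below was not tested, and in bulk RNA fewer cells of a type and less RNA per cell cannot be told apart.

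Between the tumour types, 9 of the 10 genes passed the filter on low values (mean FPKM of at least 0.5), and 6 of the 9 differed at a limma adjusted p under 0.05 (Benjamini-Hochberg over all 16750 genes tested, on log2(FPKM + 1), inflamed minus desert). Apc and Axin1 were higher in the inflamed tumours, and Amer1, Gsk3a, Gsk3b and Btrc were lower. Ctnnb1, Csnk1a1 and Tcf7l2 did not pass the threshold, and Apc2 was too low to be tested. The background was high: 31% of all tested genes were called higher and 31.2% lower, against 2 and 4 of the 9. The median log2 difference of the 9 genes was -0.29 and that of all tested genes -0.01. In FPKM the groups did not overlap for 1 gene that was higher (Axin1) and 4 that were lower, against 24.4% of all tested genes higher and 24.4% lower.

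**Figure D1:**
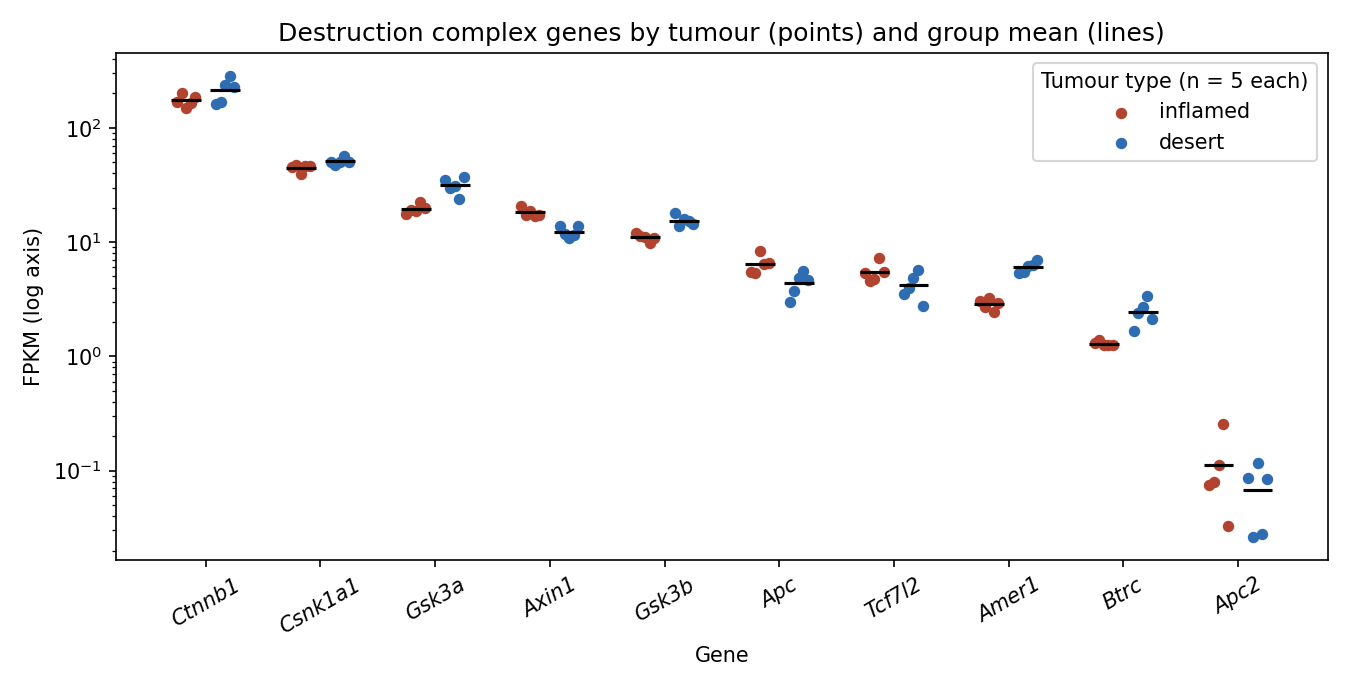
FPKM of the 10 genes (log axis), 1 point per tumour (n = 5 per type) with a line at each group mean, ordered by level. Ctnnb1 is the highest in both types and Apc2 the lowest, and the groups separate for Gsk3a, Axin1, Gsk3b, Amer1 and Btrc.

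Apc (ENSMUSG00000005871, chromosome 18, 34353977 to 34455605, plus strand) is the large scaffold that was floxed in the inflamed model. Gene positions are as the table gives them, with no build named, and cannot be set against the GRCm38 positions printed above. Its FPKM in inflamed tumours 1 to 5 was 5.42, 5.33, 8.29, 6.38 and 6.50, and in desert tumours 1 to 5 it was 3.00, 3.75, 4.86, 5.57 and 4.62. Apc RNA was thus higher, not lower, in the tumours of the Apc-floxed model: the mean was 6.39 ± 1.19 against 4.36 ± 1.0 (SD, n = 5 each), a log2 difference of 0.47 (SE 0.15, limma adjusted p = 0.0182). On the TPM scale Apc did not pass the threshold (0.25, limma adjusted p = 0.290). The groups overlapped, since inflamed tumours 1 and 2 lay just below desert tumour 4. The sources used here do not name the exons flanked by recombination sites, and a sum over the whole gene that also counts cells without Cre does not check the deletion. With 741 to 2335 reads per library, counting error was small beside the spread between tumours.

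Apc2 (ENSMUSG00000020135, chromosome 10, 80131811 to 80154097, plus strand), the paralog of Apc expressed mainly in the nervous system, was barely detected. Its FPKM was 0.0755, 0.0789, 0.112, 0.256 and 0.0325 in the inflamed and 0.0867, 0.0261, 0.116, 0.0280 and 0.0841 in the desert tumours, which corresponds to 5 to 44 reads per library. The ranges overlapped almost fully, the highest value being that of inflamed tumour 4. With no filter on low values its log2 difference was 0.05 (limma adjusted p = 0.478), on a scale that shrinks changes at so low a level. The voom method of limma on recovered reads gave 0.55 (SE 0.57, limma adjusted p = 0.421). At this depth a difference was thus neither detected nor excluded. The 3 tested neuronal markers did not move together: Tubb3 (3.93 ± 1.69 against 0.325 ± 0.171 FPKM) and Ret (1.12 against 0.223) were higher in the inflamed tumours, whereas Uchl1 (3.20 ± 0.663 against 15.6 ± 2.78) was lower. Uchl1 alone made up most of the summed level of the 10 neuronal markers in the desert tumours (12.8 to 20.2 FPKM, against 7.49 to 12.1 in the inflamed group). The gene 2310011J03Rik overlaps it on the opposite strand with up to 642 reads per library, and since the sources used here do not say whether counting used strand, reads of the pair cannot be separated. Apc was therefore by far the more abundant of the paralogs, at 24.9 to 200.2 times the FPKM of Apc2 in the inflamed and 34.6 to 199.4 times in the desert group.

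Axin1 (ENSMUSG00000024182, chromosome 17, 26357662 to 26414785, plus strand) is the scaffold that binds Apc, beta-catenin and both kinases. The inflamed tumours had 20.6, 17.4, 18.9, 16.9 and 17.4 FPKM and the desert tumours 13.7, 11.8, 10.8, 11.5 and 13.8. Every inflamed tumour lay above every desert tumour, and the spread within each type was narrow (18.2 ± 1.54 against 12.3 ± 1.35). Axin1 rose by 0.53 on the log2 scale (SE 0.09, limma adjusted p = 0.000376), or 1.48 times in mean FPKM. After rescaling to TPM the groups overlapped and the call was lost (0.26, limma adjusted p = 0.0681), and with chromosome medians removed the difference was 0.22 (limma adjusted p = 0.0369).

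Amer1 (ENSMUSG00000050332, X chromosome, 94463924 to 94488478, minus strand), also called WTX, is a membrane-associated protein that binds Apc and beta-catenin. It had the largest difference of the 9 tested genes. FPKM was 3.03, 2.71, 3.26, 2.43 and 2.93 in the inflamed and 5.35, 5.49, 6.24, 6.35 and 7.04 in the desert tumours. No inflamed tumour came near the lowest desert tumour. The mean was 2.87 ± 0.317 against 6.09 ± 0.686, so that the desert mean was 2.12 times the inflamed mean, and Amer1 fell by 0.87 on the log2 scale (SE 0.10, limma adjusted p = 1.56e-05). In FPKM, Axin1 and Amer1 thus differed in opposite directions, although Axin1 was not called under TPM. Since neither gene overlapped between the types, their ratio could not overlap either and adds no separate evidence. The ratio of Axin1 to Amer1 lay between 5.80 and 6.97 in the inflamed and between 1.74 and 2.56 in the desert group.

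The GSK3 paralogs were both lower in the inflamed tumours. Gsk3a (ENSMUSG00000057177, chromosome 7, 24927683 to 24937276, minus strand) had 17.7, 18.9, 18.8, 22.5 and 19.9 FPKM in the inflamed and 34.9, 30, 30.8, 23.9 and 37.2 in the desert tumours. The groups did not overlap, but inflamed tumour 4 and desert tumour 4 came close to each other. Gsk3a fell by 0.64 on the log2 scale (SE 0.12, limma adjusted p = 0.000666), and the desert mean of 31.4 ± 5.12 was 1.60 times the inflamed mean of 19.6 ± 1.81.

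Gsk3b (ENSMUSG00000022812, chromosome 16, 37909363 to 38066446, plus strand) had 11.9, 11.3, 11.1, 9.74 and 10.9 FPKM in the inflamed and 17.9, 13.7, 16.1, 15.2 and 14.3 in the desert tumours. All inflamed tumours were again below all desert tumours. It fell by 0.45 (SE 0.09, limma adjusted p = 0.000914), with means of 11.0 ± 0.788 and 15.4 ± 1.66. The balance between the paralogs was similar in level, with Gsk3a at 1.80 ± 0.309 times the FPKM of Gsk3b in inflamed and 2.05 ± 0.381 times in desert tumours, and these ranges overlapped.

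Csnk1a1 (ENSMUSG00000024576, chromosome 18, 61688345 to 61723132, plus strand), the priming kinase, was the second most abundant of the 10 genes. FPKM was 45, 47.0, 39.6, 46.5 and 46.4 in the inflamed and 50.4, 46.8, 50.7, 56.5 and 50.6 in the desert tumours. Inflamed tumour 3 was the lowest of all, and desert tumour 2 lay just under inflamed tumour 2, so the groups touched. The means of 44.9 ± 3.05 and 51.0 ± 3.46 gave a log2 difference of -0.18 (SE 0.08, limma adjusted p = 0.0740), which did not pass the threshold.

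Btrc (ENSMUSG00000025217, chromosome 19, 45352173 to 45518452, plus strand) encodes beta-TrCP1, the ligase subunit that reads the phosphorylated stretch printed above. The inflamed tumours were nearly equal, at 1.31, 1.39, 1.24, 1.27 and 1.27 FPKM, whereas the desert tumours ranged over 1.67, 2.42, 2.69, 3.39 and 2.12. The groups did not overlap, and the coefficient of variation was 4.54% in the inflamed and 26.1% in the desert tumours. Btrc fell by 0.57 on the log2 scale (SE 0.13, limma adjusted p = 0.00265), and the desert mean (2.46 ± 0.643) was 1.90 times the inflamed mean (1.30 ± 0.0588). The pseudogene Gm6807 overlaps it on the opposite strand with up to 102 reads per library, beside 326 to 1090 for Btrc. Its paralog Fbxw11, which encodes beta-TrCP2 and was named after its value was seen, was more abundant and also lower in the inflamed tumours (21.8 ± 1.45 against 29.4 ± 1.87 FPKM, log2 difference -0.41, limma adjusted p = 0.000650).

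Ctnnb1 (ENSMUSG00000006932, chromosome 9, 120758282 to 120789573, plus strand), the gene of beta-catenin itself, was the most abundant in every tumour. FPKM was 169, 202, 148, 166 and 188 in the inflamed and 162, 170, 237, 284 and 229 in the desert tumours. Desert tumours 3 to 5 exceeded all inflamed tumours, but desert tumours 1 and 2 fell within the inflamed range. The means of 174.5 ± 20.6 and 216.4 ± 50.5 differed by -0.29 on the log2 scale (SE 0.16, limma adjusted p = 0.145), which did not pass the threshold.

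Tcf7l2 (ENSMUSG00000024985, chromosome 19, 55730252 to 55922086, plus strand) had 5.32, 4.54, 4.74, 7.29 and 5.48 FPKM in the inflamed and 3.52, 4.0, 4.89, 5.71 and 2.77 in the desert tumours. The groups overlapped broadly, with inflamed tumour 4 highest and desert tumour 5 lowest. On the log2 scale the types differed by 0.34 (SE 0.16, limma adjusted p = 0.0964). The difference passed the threshold only without desert tumour 4 (0.44, limma adjusted p = 0.0329) among the 21 alternatives in which it was tested.

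How far these differences depend on the scaling was examined next, because FPKM sums differed between the types. With scaling by medians of ratios the median difference of all genes was 0.01, and 2 of the 9 genes were called higher and 4 lower. Rescaling to TPM gives every library the same total, so that the deposited scaling drops out. Under TPM the median difference of all genes moved from -0.01 to -0.28. The share of calls that were higher in inflamed tumours fell from 49.9% to 35%. On this scale 22.5% of all tested genes were called higher and 41.7% lower, and of the 9 genes 0 were higher and 6 lower. Apc and Axin1 kept a positive difference without passing the threshold. Ctnnb1 (-0.59, limma adjusted p = 0.0146) and Csnk1a1 (-0.48, limma adjusted p = 0.00106) passed it as lower. Relative to the median of all genes, Apc and Axin1 were above and the other called genes below on both scales. Gsk3a, Gsk3b, Amer1 and Btrc were called lower under every alternative in which they were tested (22 for the kinases, 21 for the others), with log2 differences of -0.96 to -0.35, -0.77 to -0.22, -1.30 to -0.79 and -1.03 to -0.48. Apc (0.25 to 0.84) and Axin1 (0.22 to 0.57) kept a positive sign under all 22 and were called in 21 of them, TPM being the exception.

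**Figure D2:**
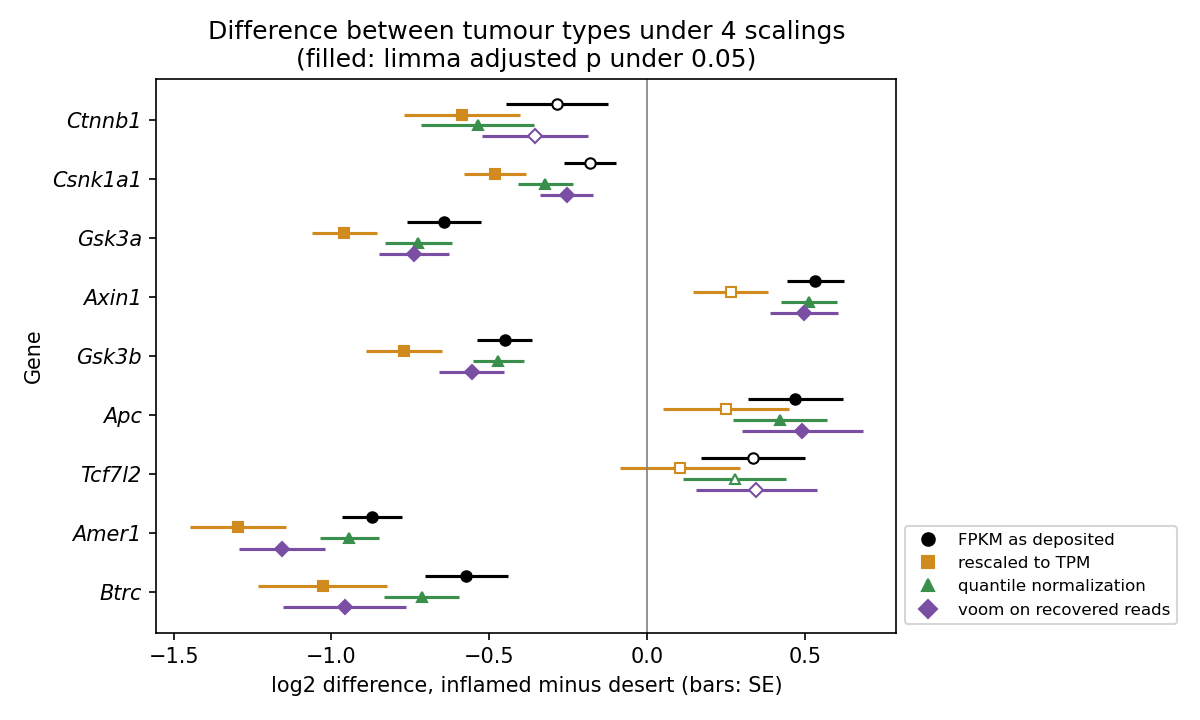
Log2 difference (inflamed minus desert, bars: SE) of the 9 tested genes under 4 scalings, filled where the limma adjusted p was under 0.05. Apc and Axin1 lie right of 0 and lose their call under TPM, whereas Gsk3a, Gsk3b, Amer1 and Btrc lie left of 0 under all 4.

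The differences were also set beside the median difference of the chromosome on which each gene lies. Genes of chromosome 18, which carries Apc and Csnk1a1, had a median log2 difference of -0.38 (440 tested genes), and those of chromosome 17, which carries Axin1, one of 0.31. The medians were -0.30 for chromosome 7, which carries Gsk3a, and -0.23 for chromosome 16, which carries Gsk3b. With the chromosome medians removed, Apc differed by 0.84, Axin1 by 0.22 and Tcf7l2 by 0.22. The differences of Gsk3a and Gsk3b shrank to -0.35 (limma adjusted p = 0.00584) and -0.22 (limma adjusted p = 0.0459), while Amer1 differed by -0.79 and Btrc by -0.69. On the same adjusted scale Csnk1a1 changed sign, to 0.19 (limma adjusted p = 0.0418), and Ctnnb1 differed by -0.51 (limma adjusted p = 0.0130). With chromosome medians removed, 3 of the 9 genes were called higher and 5 lower, beside 5130 higher and 5013 lower of all 16750 tested genes. Whether the chromosome shifts reflect copy number was not tested.

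A ratio between genes of 1 library does not depend on how the library was scaled, so each gene was also expressed as a share of Ctnnb1 in the same tumour. Apc RNA was 3.21, 2.64, 5.59, 3.85 and 3.47% of Ctnnb1 in inflamed and 1.84, 2.21, 2.05, 1.97 and 2.01% in desert tumours. On this measure the Apc groups no longer overlapped, and the desert tumours were nearly equal (2.02 ± 0.133%, against 3.75 ± 1.12%). The lower mean of Ctnnb1 itself in the inflamed tumours (174.5 against 216.4 FPKM, not called) raises the shares of Ctnnb1 there and so adds to this gap. Axin1 was 12.2, 8.61, 12.7, 10.2 and 9.27% of Ctnnb1 in inflamed and 8.44, 6.96, 4.57, 4.05 and 6.01% in desert tumours. The gap between inflamed tumour 2 and desert tumour 1 was small.

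Amer1 stood at 1.79, 1.34, 2.20, 1.47 and 1.56% of Ctnnb1 in inflamed and 3.30, 3.24, 2.64, 2.24 and 3.07% in desert tumours, and inflamed tumour 3 nearly met desert tumour 4. Btrc stood at 0.676 to 0.839% in the inflamed and 0.925 to 1.43% in the desert group. In all, 2 of 9 genes were higher and 2 lower without overlap relative to Ctnnb1, against 24.9% and 11.4% of all tested genes. Gsk3a (11.3 ± 1.73% and 15.4 ± 4.93%), Gsk3b (6.36 ± 0.840% and 7.49 ± 2.22%), Csnk1a1 (25.9 ± 1.86% and 24.4 ± 4.71%), Tcf7l2 and Apc2 overlapped. The ratio of Apc to Axin1 was 0.352 ± 0.0683 in inflamed and 0.361 ± 0.107 in desert tumours, with overlapping ranges.

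**Figure D3:**
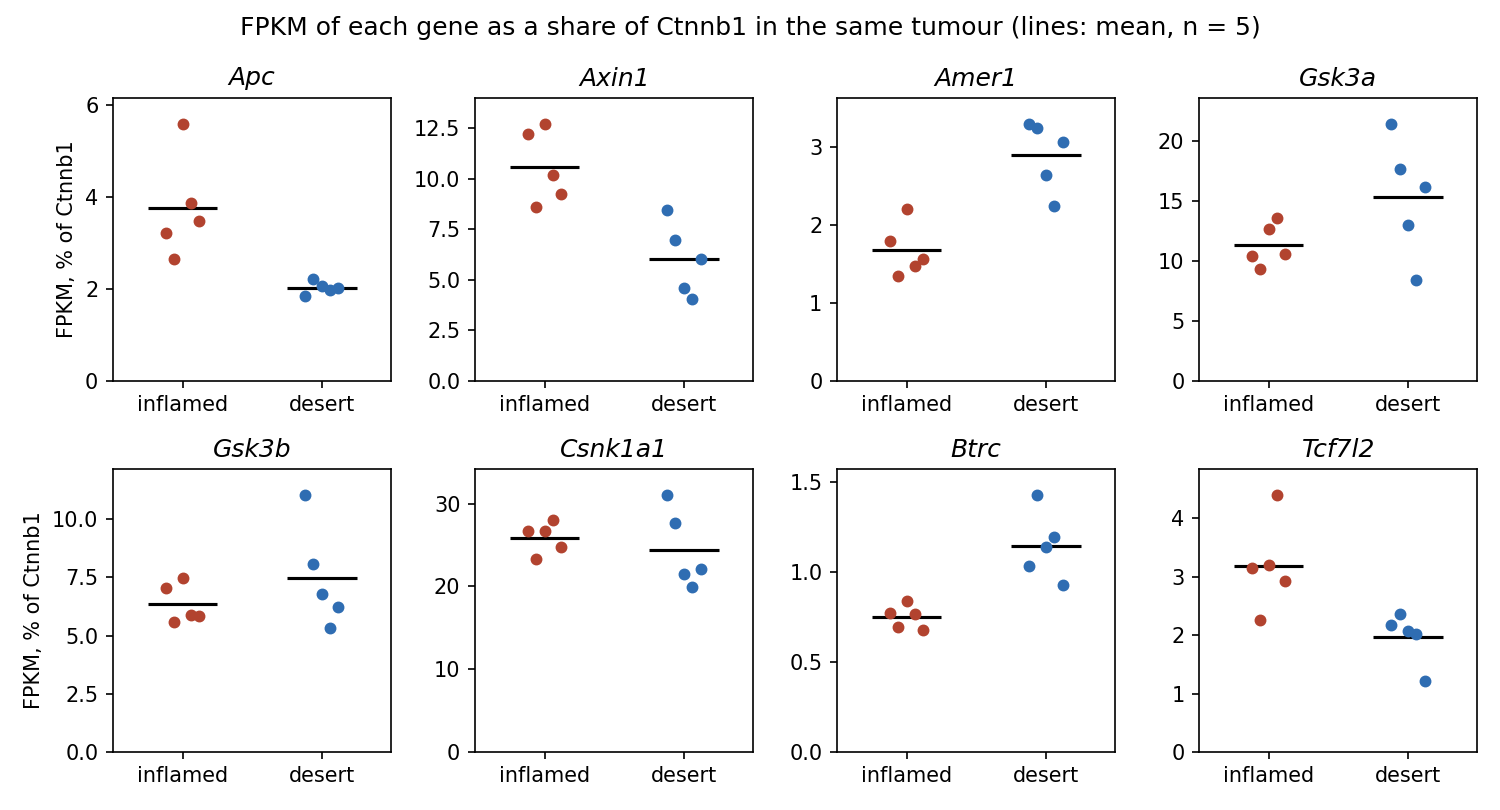
FPKM of 8 genes as a percentage of Ctnnb1 in the same tumour, 1 point per tumour with lines at the means (n = 5). The groups are apart for Apc and Axin1 (inflamed higher) and for Amer1 and Btrc (inflamed lower), and overlap for Gsk3a, Gsk3b, Csnk1a1 and Tcf7l2.

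The order of the levels, which rests on the gene lengths used, differed in places between the types. In both, Ctnnb1 was first and Csnk1a1 came next, with no overlap between them. In the inflamed tumours Gsk3a and Axin1 followed, overlapping (Gsk3a was higher in 3 of 5), and Gsk3b lay below both in every tumour. In the desert tumours Gsk3a and Gsk3b followed, and Gsk3b was above Axin1 in 5 of 5 tumours although the 2 ranges overlapped. Amer1 ranked below Apc and Tcf7l2 in the inflamed tumours but above Apc in 5 of 5 desert tumours. Apc and Tcf7l2 did not differ beyond their spread in either type (Apc was higher in 4 of 5 inflamed and in 1 of 5 desert tumours). Btrc came after them and Apc2 was last in both.

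Within the types, the genes did not vary as a block. Over the 10 libraries, deviations of log2(FPKM + 1) from the group means correlated at 0.76 between Ctnnb1 and Csnk1a1, 0.75 between Ctnnb1 and Btrc, 0.64 between Apc and Amer1 and 0.47 between Apc and Ctnnb1. They correlated at -0.80 between Btrc and Gsk3a and at -0.68 between Axin1 and Tcf7l2. These coefficients describe 10 points that share library scaling, and no p is given. Among the 7975 genes whose mean FPKM reached 5, those most like Apc in the same deviations were Dnajc18 (0.954), Nek9 (0.929), Mob3b (0.921), Fam189b (0.917) and Mbp (0.916), of which Dnajc18 and Mbp also lie on chromosome 18. For Ctnnb1 they were Rbm45 (0.953), Sbspon (0.923), Rnf150 (0.922), Bloc1s6 (0.916) and Map3k13 (0.905). A coefficient over 0.9 was reached by 0.125% of these genes for Apc and by 0.0752% for Ctnnb1.

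The other genes of the pathway were taken from 9 lists, written with earlier results of these data known. The lists held 91 genes, of which 86 were tested. Of these 17 were higher and 47 lower in the inflamed tumours (19.8% and 54.7%), with a median log2 difference of -0.40, beside 31% higher and 31.2% lower among all tested genes, the shares against which each list below is to be read. Under TPM the counts were 12 and 59, beside 22.5% and 41.7% of all tested genes, and under limma voom on recovered reads 15 and 51. The 10 destruction complex genes are not among the 91.

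**Figure D4:**
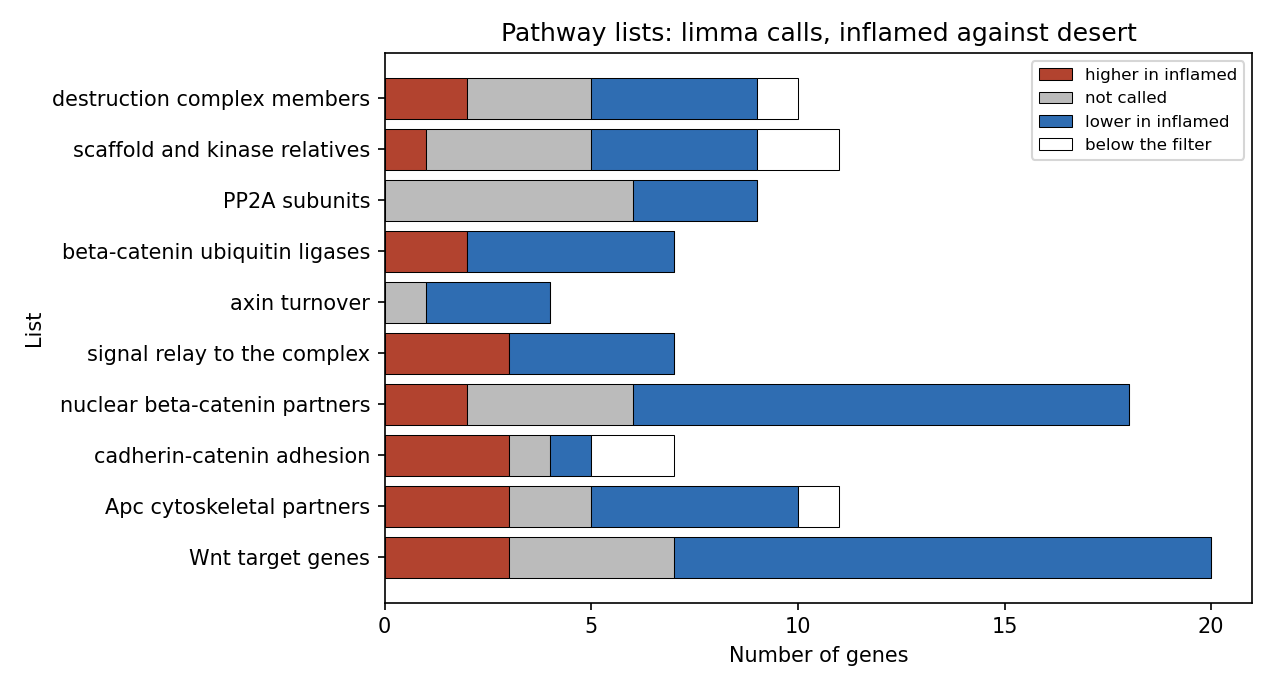
Number of genes of each pathway list that were higher, not called or lower in inflamed tumours by limma, or below the filter on low values, with the 10 destruction complex genes on top. Lower calls are most numerous among the Wnt target genes (13 of 20) and the nuclear partners of beta-catenin (12 of 18).

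Among 9 tested relatives of the scaffolds and kinases, 1 was higher (Csnk2b) and 4 lower. Axin2, the paralog of Axin1 and itself a target of beta-catenin, had 45.9, 28.0, 18.8, 29.8 and 33.2 FPKM in the inflamed and 101, 67.0, 104, 106 and 107 in the desert tumours. It moved against Axin1 without any overlap of the groups (-1.65, limma adjusted p = 5.95e-05), and the ratio of Axin1 to Axin2 was 0.633 ± 0.217 in inflamed and 0.130 ± 0.0289 in desert tumours. The casein kinases Csnk1e (9.55 ± 0.729 against 18.5 ± 2.35 FPKM, -0.88, limma adjusted p = 1.35e-05) and Csnk1d (41.3 ± 1.16 against 50.6 ± 3.71, -0.28, limma adjusted p = 0.00652) were lower, although Csnk1d lost its call with chromosome medians removed, as did Csnk1g3. Csnk2b (0.47, limma adjusted p = 0.0169) lost its call under TPM (0.18, limma adjusted p = 0.216) and with chromosome medians removed (0.16, limma adjusted p = 0.280).

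Of 9 subunits of the phosphatase PP2A, which counteracts the kinases, 0 were higher and 3 lower (33.3%, close to the 31.2% of all tested genes), among them the regulatory subunits Ppp2r5a (-0.51, limma adjusted p = 0.000243) and Ppp2r5e (-0.42, limma adjusted p = 0.000506). The abundant catalytic subunit Ppp2cb (75 against 83.7 FPKM) and scaffold Ppp2r1a (65.9 against 58.8 FPKM) did not pass the threshold. Under TPM 7 of the 9 were called lower, where 41.7% of all tested genes were.

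All 7 ubiquitin ligase genes were called. The 5 lower ones included the partners of Btrc in the SCF ligase: Skp1 (83.8 ± 10.5 against 165.7 ± 13.4 FPKM, -0.98, limma adjusted p = 1.45e-05), Rbx1 (-0.59, limma adjusted p = 0.000789) and Cul1 (-0.38, limma adjusted p = 0.0113). The Siah genes, of a ligase that acts on beta-catenin by another route, were split. Siah1b was lower (3.23 against 5.01 FPKM, -0.52, limma adjusted p = 0.00452). Siah1a (0.24) and Siah2 (0.31) were higher but lost their calls under TPM, where the difference of Siah1a was -0.03. They also lost them under quantile normalization (limma adjusted p = 0.0679 and 0.103) and under voom (limma adjusted p = 0.174 and 0.0716). Siah2 also lost its call with chromosome medians removed (limma adjusted p = 0.0602), so that 0 ligase genes were called higher under 3 of the 5 scaling alternatives. Of 4 genes of axin turnover, Tnks, which encodes tankyrase, was lower (7.98 ± 0.732 against 17.3 ± 3.90 FPKM, -1.0, limma adjusted p = 6.94e-05), as were Usp34 (-0.62, limma adjusted p = 0.00113) and Rnf146, and Tnks2 (24.2 against 29.0 FPKM) did not pass the threshold.

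Of the 7 genes that relay the Wnt signal to the complex, 3 were higher and 4 lower. Frat1, a GSK3-binding protein, was at 2.21 ± 0.333 FPKM in inflamed and 0.168 ± 0.0822 in desert tumours (1.45, limma adjusted p = 9.5e-07), and its relative Frat2 was also higher. Of the dishevelled genes, Dvl1 was higher (19.8 ± 1.92 against 13.3 ± 1.68 FPKM, 0.54, limma adjusted p = 0.000615) and Dvl2 lower (2.63 ± 0.274 against 7.86 ± 0.842 FPKM, -1.29, limma adjusted p = 6.4e-07), with Dvl3 lower too. The co-receptors Lrp5 (-0.52, limma adjusted p = 0.0270) and Lrp6 (-0.79) were lower. These 7 calls kept their direction under the 5 scaling alternatives.

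Of the 18 nuclear partners of beta-catenin, 2 were higher (Ctnnbip1 and Tle2) and 12 lower. The lower ones included Tle1, a relative of Tle2 (-0.68, limma adjusted p = 0.0237). Ctnnbip1 (0.31, limma adjusted p = 0.0469) lost its call under TPM (0.06, limma adjusted p = 0.689), quantile normalization, voom and removal of chromosome medians (0.04, limma adjusted p = 0.808), which left 1 higher gene. The TCF/LEF relatives of Tcf7l2 were far lower: Tcf7l1 (1.13 ± 0.245 against 5.70 ± 0.656 FPKM, -1.66, limma adjusted p = 3.95e-07), Tcf7 (15.4 ± 3.31 against 48.4 ± 14.3 FPKM, -1.58, limma adjusted p = 5.68e-05) and Lef1 (0.748 ± 0.314 against 4.14 ± 0.539 FPKM, -1.57, limma adjusted p = 4.54e-06). In the inflamed tumours Tcf7l2 was thus the only 1 of these 4 factors that was not called lower. Of the Apc cytoskeletal partners, Mapre2, a relative of the microtubule end protein EB1, was higher (9.56 ± 0.657 against 1.11 ± 0.628 FPKM, 2.37, limma adjusted p = 7.69e-07), whereas Mcc (2.38 ± 0.307 against 12.9 ± 4.68 FPKM, -1.98, limma adjusted p = 1.1e-05) and Iqgap1 (27.9 against 53.6 FPKM, -0.90) were lower, and Mapre1, which encodes EB1, was not called (21.4 against 24.1 FPKM).

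Cadherins and catenins hold the other pool of beta-catenin at cell contacts. Of 5 such genes tested, 3 were higher and 1 lower, and under TPM 2 were higher and 2 lower. E-cadherin (Cdh1) had 261.5 ± 58.1 FPKM in inflamed and 125.5 ± 16.1 in desert tumours (1.03, limma adjusted p = 0.000171), and Ctnnd1 and Jup were higher, Jup not under TPM (0.12, limma adjusted p = 0.326). Ctnna1 was not called (100.1 against 94.7 FPKM, 0.07, limma adjusted p = 0.594) but was called lower under TPM (-0.23, limma adjusted p = 0.0258) and higher with chromosome medians removed (0.44, limma adjusted p = 0.00483). P-cadherin (Cdh3) was lower, at 0.482 against 10.9 ± 8.04 FPKM (-2.80, limma adjusted p = 2.75e-05). Cdh1 is also among the 8 pan-epithelial markers, of which 6 were higher and 0 lower in the inflamed tumours, and the part of epithelial content in its difference was not tested.

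Of 20 Wnt target genes, 3 were higher and 13 lower in the inflamed tumours, with a median log2 difference of -1.38, beside 31% higher and 31.2% lower among all tested genes. Lgr5, a stem cell receptor, was at 8.03 ± 2.89 FPKM in inflamed and 85.6 ± 18.3 in desert tumours (-3.29, limma adjusted p = 3.85e-07), and Apcdd1, an inhibitor of Wnt signals, at 1.87 ± 0.262 against 47.0 ± 21.8 (-3.95, limma adjusted p = 5.31e-07). The feedback inhibitors Notum (82.4 ± 29.7 against 579.7 ± 293.7 FPKM, -2.71, limma adjusted p = 0.000208) and Nkd1 (78.6 ± 30.4 against 270.9 ± 50.7 FPKM, -1.86, limma adjusted p = 0.000201) were lower as well. The 3 higher genes were Myc (0.78, limma adjusted p = 0.00168), Cd44 (1.40, limma adjusted p = 9.34e-05) and Tnfrsf19 (1.38, limma adjusted p = 0.000481), named after their values were seen. A count of 3 was called higher under each of the 5 scaling alternatives, and 13 or 14 lower. Sox9, 1 of the 20, is also on the chondrocyte list, whose 4 tested genes were all lower.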

How the data were processed

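The authors deposited a single expression table of 56748 genes in FPKM, reads adjusted for the length of the gene and a total for each library. The submitters' processing notes name the build mm10. The gene positions in the table do not match GRCm38, the assembly of mm10. The printed Ctnnb1 codons (GRCm38 chr9:120950599-120950646) lie outside the span that the table gives for Ctnnb1 (120758282 to 120789573). The sources used here do not give the aligner, the counter, the annotation or the use of strand. The labels' protocol text speaks of fewer tumours than the 10 listed, and all 10 were used. FPKM times gene length gave whole multiples of 1 step in each library (100% of the non-zero values, tolerance 0.01), and these gave the reads.

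The 16750 genes whose mean FPKM reached 0.5 were compared on log2(FPKM + 1), a scale that shrinks the changes of weakly expressed genes. The two-sided moderated test of limma 3.58.1 (R 4.3.3) was used, with tumour type as the sole covariate, an intensity trend and robust moderation, after the code was tested on simulated data. Calls needed a Benjamini-Hochberg adjusted p under 0.05. Whether groups overlapped, ratios and TPM were computed with pandas 2.3.3 and numpy 2.4.6, and figures drawn with matplotlib 3.10.9. Named were the 10 genes, up to 4 genes of each pathway list (the 2 of largest difference among those called and the 2 of highest mean) and the 5 genes most like Apc and most like Ctnnb1. Others were named after their values were seen. The 10 genes and all lists were chosen with earlier results of these data known. In the 22 alternatives the pseudocount was 0.1 or 0.01, the filter on low values was dropped or raised to 5 FPKM, and values were rescaled to TPM, by medians of ratios, by quantiles or by chromosome medians. Others used limma with neither trend nor robust moderation, array quality weights, the voom method of limma on recovered reads (genes averaging 10 reads or more), a replicate block, or each library left out in turn. Voom called 5231 genes higher and 5790 lower.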

Additional observations from a re-analysis of the deposited data

Results flagged for a closer look

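Csnk1a1 in inflamed tumour 3 stood apart from the other inflamed tumours, at 39.6 FPKM against 45 for the nearest of them. The gap was 0.74 of the range of the 5 tumours, where Dixon's 95% critical value is 0.71. It was the only such value among the 20 groups of 5 examined (10 genes in 2 tumour types), and chance flags about 1 in 20.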

How the results depend on the processing

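Of 195 values of single genes of the complex over the 22 alternatives, 185 kept their direction and side of the threshold, 2 lost and 7 gained a call, and 1 changed sign (Csnk1a1, 0.19 with chromosome medians removed). Under TPM 0 genes of the complex were called higher. A mean FPKM of at least 5 leaves out Amer1, Btrc, Tcf7l2 and Apc2, so 2 genes of the complex were lower, with 11 pathway genes higher and 2784 genes higher and 3070 lower in all. Quantile normalization moved the median of all genes to -0.11, with 42.9% of calls higher. Leaving out 1 library gave 2 to 3 genes of the complex higher and 4 lower. The replicate block (the tumour number) gave 4958 genes higher and 4967 lower and changed no call of the complex. Deviations of same-numbered tumours correlated at -0.07 to 0.08 and only number 3 matched best with its own, so the tumours share only a number.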
